A study of Mus musculus with 15 samples.

Results

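The last step of a course of intratumoral poly(I:C) is described here, from day 5 to day 7. The 6 tumors were those labelled day 5 (3 tumors) and day 7 (3 tumors), out of 15 in the course. All were subcutaneous WEHI-164 tumors in female BALB/c mice of WT genotype. WEHI-164 is a transplantable mouse fibrosarcoma line. The labels give 1 µg of poly(I:C) in 25 µL into the tumor every day for 6 planned doses, so day 5 lies within the planned dosing and day 7 after it. The study's supplement also names a higher amount, and the dose is therefore uncertain. Each group was 3 mice per the study. Both groups were treated tumors, and the untreated day 0 tumors (n = 3) are used only to give a starting range. No vehicle-injected tumors of day 5 or day 7 were analysed here, so time in the animal, tumor growth and the end of dosing cannot be told apart. The labels do not give the age of the mice.

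Poly(I:C), an artificial double-stranded RNA, is sensed by Toll-like receptor 3 in endosomes and by the cytosolic receptor MDA5, encoded by Ifih1, and both routes lead to type I interferon. Type I interferon acts on an interferon-stimulated response element (ISRE) in the promoters of antiviral genes. Interferon gamma, made mostly by T and NK cells, acts on a different element (GAS) and strongly induces guanylate-binding proteins (GBPs), immunity-related GTPases (IRGs), CXCL9 and MHC genes.

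Depth was slightly lower on day 7 in every tumor. Total estimated counts were 27.3 to 28.3 mega-counts on day 5 and 23.7 to 25.8 mega-counts on day 7, and 3 counts, the limit that a count of 0 allows, came to between 0.106 and 0.127 CPM (the counts of a gene for every mega-count of its library), for counting error only. Of the markers of a fibrosarcoma, Vim, a mesenchymal filament gene, was at 4126 to 4990 CPM in the 6 tumors. Of 10 keratinocyte markers, 6 were too low to be tested, among them Krt5 and Krt14. On the first principal component of the 6 tumors, which held 62.3% of the variance, the days interleaved. Day 5 replicates 1, 2 and 3 lay at -71.1, -28.6 and 18.4, and day 7 replicates 1, 2 and 3 lay at 39.2, -23.6 and 65.7. Day 7 replicate 2 thus sat among the day 5 tumors.

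No gene passed the adjusted threshold. With edgeR's quasi-likelihood test and p-values adjusted by Benjamini-Hochberg over 15494 genes, 0 genes (0.0%) were called between day 5 and day 7, and the smallest adjusted p was 0.848. At an unadjusted p under 0.05, 468 genes (3.02%) were counted, 301 of them lower on day 7 (1.94%) and 167 higher (1.08%). That share was below the fraction of 0.05 that the threshold itself gives when no gene differs. DESeq2, run as an alternative, called 2 genes (0.0129%) and put 723 (4.67%) at an unadjusted p under 0.05. In 1180 genes (7.62%) the 3 tumors of day 7 lay wholly above or below the 3 of day 5, of which 632 were higher (4.08%) and 548 lower (3.54%). Without any difference, 3 tumors against 3 would give a fraction of 0.1, so this share was also below it. Gene groups are therefore described by counts and medians beside those of all genes, whose median log2 fold change was 0.00, and no group was tested. All log2 fold changes are edgeR estimates of day 7 against day 5, and every adjusted p of a gene named here was at least 0.848 by edgeR.

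Within that limit, the day 7 tumors on average held less RNA of interferon-induced and T cell genes, and more RNA of hypoxia and cholesterol synthesis genes, than the day 5 tumors. Of 33 gene lists, 27 had a median below 0 and 6 a median above 0. In 2 lists, the interferon response and the double-stranded RNA sensors, the level of every day 7 tumor was below that of every day 5 tumor, and 5 of the 8 sensor genes are also members of the interferon response list. In the other 31 lists the days overlapped.

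The promoters of 4 genes are shown because they hold letters of elements known for the interferon and hypoxia pathways. They are the RefSeq bases before the start site on GRCm38.p6, read along the gene's own strand, 5′ to 3′. Capitals mark ISRE letters (2 GAAA half-sites 2 bases apart, on either strand) in the first 3 and the hypoxia response letters (ACGTG on either strand) in Car9. Overlapping matches run together.

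Oas1a (chr5:120907526-120907775, minus strand): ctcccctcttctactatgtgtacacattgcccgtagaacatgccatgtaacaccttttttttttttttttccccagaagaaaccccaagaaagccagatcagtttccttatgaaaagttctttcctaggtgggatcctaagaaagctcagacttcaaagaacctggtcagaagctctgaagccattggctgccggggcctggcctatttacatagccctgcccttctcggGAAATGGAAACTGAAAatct
Isg15 (chr4:156200819-156201068, minus strand): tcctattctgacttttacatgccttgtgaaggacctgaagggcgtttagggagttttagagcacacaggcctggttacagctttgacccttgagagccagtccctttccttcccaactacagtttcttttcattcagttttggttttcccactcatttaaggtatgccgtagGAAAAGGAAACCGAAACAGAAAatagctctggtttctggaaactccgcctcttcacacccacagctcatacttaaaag
Gbp2 (chr3:142620413-142620662, plus strand): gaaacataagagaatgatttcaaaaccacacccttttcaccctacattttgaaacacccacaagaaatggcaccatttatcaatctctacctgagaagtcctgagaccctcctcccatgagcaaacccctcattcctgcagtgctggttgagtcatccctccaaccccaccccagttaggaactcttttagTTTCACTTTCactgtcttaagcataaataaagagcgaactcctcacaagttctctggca
Car9 (chr4:43506776-43507025, plus strand): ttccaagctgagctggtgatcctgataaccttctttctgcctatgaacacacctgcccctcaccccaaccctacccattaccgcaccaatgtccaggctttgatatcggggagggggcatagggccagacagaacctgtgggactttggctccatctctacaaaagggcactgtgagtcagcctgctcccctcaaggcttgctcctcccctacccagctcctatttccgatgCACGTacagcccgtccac

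The elements differed between the lists. RefSeq promoters were found for 30 of the 40 interferon response genes and for 10 of the 16 GBP and IRG genes. In windows of 300 bases around the start site, the ISRE letters were found in 3.44% of all 32851 RefSeq promoters and in 3.16% of those of tested genes. They were found in 16 of 35 promoters of the interferon response list (45.7%), in 10 of 11 of the GBP and IRG list (90.9%), and in 0 of 14 of the T cell list. The GAS letters (TTCNNNGAA, its own reverse complement) were found in 8.3% of all promoters and in 7.13% of those of tested genes. The list counts were 7 of 35 for the interferon response (20.0%) and 6 of 11 for GBP and IRG genes (54.5%). In the MHC class I list the GAS count was 1 of 11 (9.09%), near the share of all promoters, and the ISRE count was 2 of 11 (18.2%). The hypoxia letters were found in 19.6% of all promoters, in 24.0% of those of tested genes, in 55.6% of the hypoxia list and in 35.7% of the T cell list, whose genes were lower on day 7. A match is a run of letters and not a measured site. The 3 ISRE promoters printed above belong to genes that took different steps: Oas1a did not overlap between the days, Gbp2 was lower in 2 of 3 day 7 tumors, and Isg15 overlapped, as given below.

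**Figure D1:**
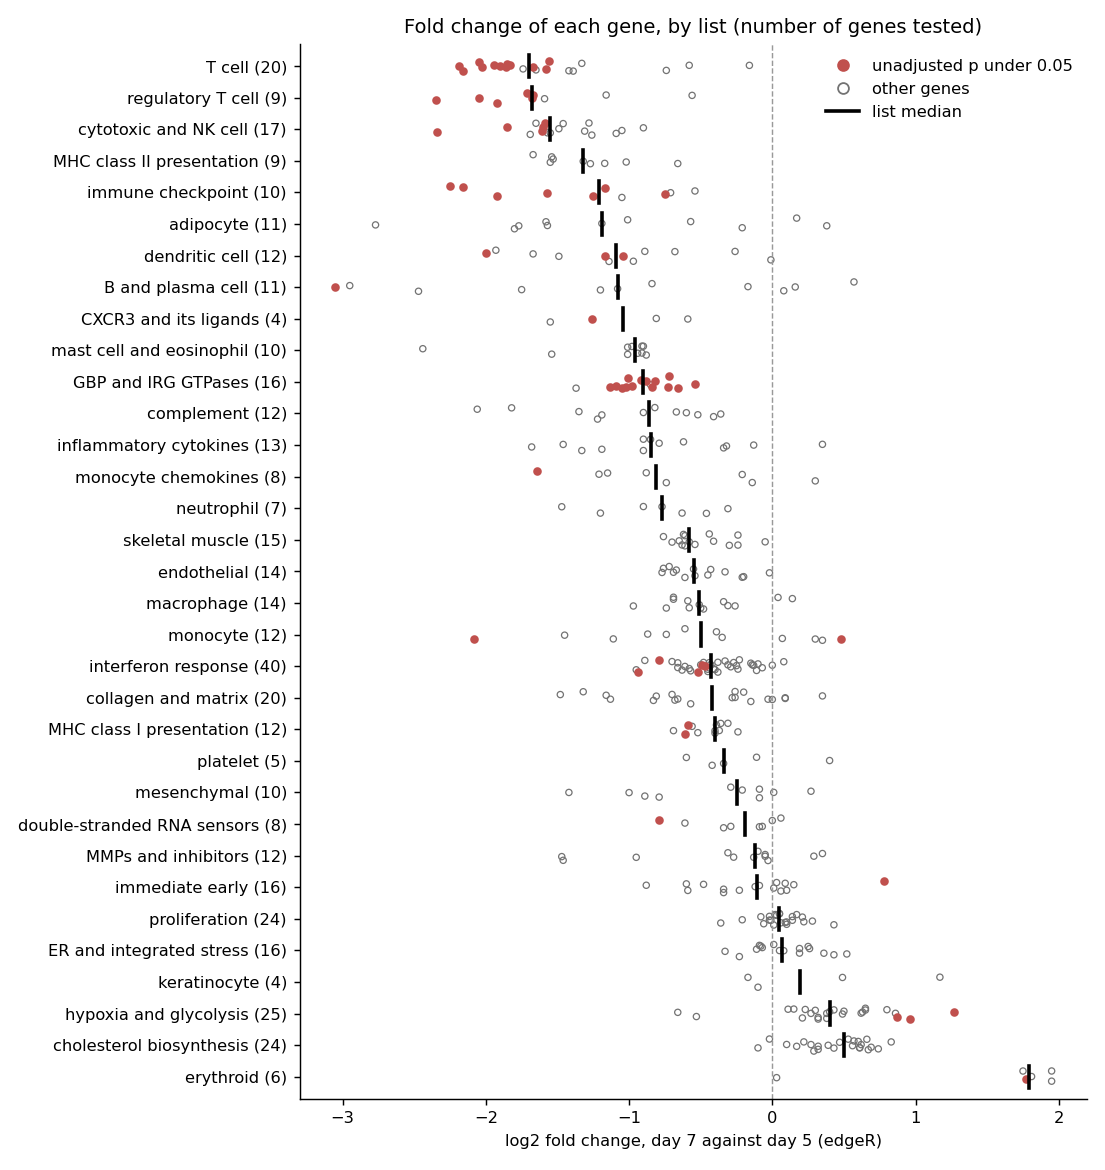
Log2 fold change of day 7 against day 5 for each tested gene of 33 lists (points, with the number of genes in brackets), with filled points at an unadjusted p under 0.05 and a bar at the list median. The T cell list lies lowest, with a median of -1.70, and the erythroid list highest, with a median of 1.79, while the median of all genes (dashed line) is 0.00.

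The interferon response was lower in all 3 day 7 tumors, by a small step. Of the 40 genes of the list, all tested, 39 were lower on day 7, and the median log2 fold change was -0.43. The level of the list, the mean of log2 CPM over its genes, was 6.25, 6.56 and 6.00 in the day 5 tumors and 5.81, 6.00 and 5.80 in the day 7 tumors. The lowest day 5 tumor and the highest day 7 tumor differed by less than 0.01, so the groups only just failed to overlap. The mean level of untreated tumors was 5.87 ± 0.16 (SD, n = 3 for each day). It reached 7.02 ± 0.72 by day 1 and 6.97 ± 0.32 by day 3, and then stood at 6.27 ± 0.28 for day 5 and 5.87 ± 0.11 for day 7. The day 7 tumors lay inside the day 0 range of 5.70 to 6.02.

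In 8 of the 40 genes (20.0%, against 3.54% of all genes) the day 7 tumors all lay below the day 5 tumors. These were Bst2, Herc6, Ifi44, Ifih1, Irf7, Mx1, Oas1a and Oas1g, and their p was above 0.05 in every case. Irf7, the transcription factor that amplifies interferon production, was at 163, 246 and 136 CPM on day 5 and at 81.2, 125 and 75.7 CPM on day 7. Its log2 fold change was -0.95 ± 0.49 (SE, unadjusted p = 0.073 by edgeR), the lowest of the list, and its day 0 range was 60.4 to 97.0 CPM. Mx1 was at 38.1, 52.4 and 29.0 CPM on day 5 and at 24.6, 25.1 and 23.9 CPM on day 7. Its day 7 tumors were close together, and the day 5 spread came mostly from replicate 2. Oas1a, which makes the 2′-5′ oligoadenylates that activate RNase L, was at 58.0, 69.9 and 48.8 CPM and then at 37.4, 46.1 and 35.8 CPM. Oas1a and Oas1g are near-identical paralogs, so the division of reads between them is uncertain. Bst2, which tethers budding virions, was at 219, 241 and 195 CPM and then at 160, 185 and 147 CPM.

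The sensors of double-stranded RNA had the same order of tumors and a smaller median, but the lists share 5 genes, among them Ifih1 and Zbp1, so their orders are not independent. Their 8 tested genes had a median of -0.19, with 7 lower, and list levels of 5.96, 6.07 and 5.74 on day 5 against 5.69, 5.74 and 5.54 on day 7. The gap between the groups was 0.01. Tlr3 was at 24.0, 25.5 and 19.7 CPM on day 5 and at 19.4, 19.4 and 15.7 CPM on day 7 (log2 fold change -0.34 ± 0.22). Ifih1 was at 68.2, 80.1 and 61.4 CPM and then at 59.1, 60.4 and 51.9 CPM (log2 fold change -0.29 ± 0.21). Neither gene overlapped between the days, and both day 7 groups lay near the day 0 ranges of 17.6 to 21.1 CPM and 52.8 to 64.1 CPM. Mavs, the adaptor downstream of MDA5, was level at a log2 fold change of 0.06 ± 0.11.

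Several classical interferon-stimulated genes did not separate the days. Isg15, a ubiquitin-like modifier, was at 45.3, 66.7 and 49.4 CPM on day 5 and at 45.8, 43.8 and 48.2 CPM on day 7 (log2 fold change -0.23 ± 0.44). Ifit1, which binds viral RNA ends, was at 36.8, 68.9 and 44.5 CPM and then at 47.5, 36.8 and 52.0 CPM (log2 fold change -0.14 ± 0.38). Rsad2, which encodes viperin, was at 35.3, 87.5 and 44.2 CPM and then at 35.2, 41.2 and 58.6 CPM (log2 fold change -0.31 ± 0.59). In all 3 genes day 5 replicate 2 was the highest of the 6 tumors and the other 5 tumors overlapped. Without that tumor Ifit1 and Rsad2 were higher on day 7, at log2 fold changes of 0.16 and 0.18. Isg20, an exonuclease, was the list's exception at 0.08 ± 0.37.

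In the interferon response list, 5 genes (12.5%, against 1.94% of all genes lower) were at an unadjusted p under 0.05, among them Zbp1, Parp9, Parp14 and Dtx3l, and all 5 overlapped. Zbp1, a sensor of Z-form nucleic acids, was at 200, 191 and 110 CPM on day 5 and at 88.5, 131 and 69.7 CPM on day 7, with a log2 fold change of -0.79 ± 0.36 (unadjusted p = 0.048 by edgeR). Day 7 replicates 1 and 3 lay below its day 0 range of 97.9 to 138 CPM, and day 7 replicate 2 lay between the day 5 tumors. Parp9 and Dtx3l, which form a ubiquitin ligase complex, had log2 fold changes of -0.47 and -0.52.

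The GBP and IRG genes, cytosolic GTPases that act on vacuoles of intracellular pathogens, had their highest level in day 5 replicate 1. All 16 GBP and IRG genes were lower on day 7, with a median of -0.90 and a range from -1.37 (Gbp8) to -0.54 (Gbp9). Of these, 14 (87.5%, against 1.94% of all genes) were at an unadjusted p under 0.05, and none was free of overlap. Day 7 replicates 1 and 3 were both below the day 5 range in 16 of 16 genes, against 3025 of all 15494 genes. Day 7 replicate 2 was inside that range in 16 of 16. Gbp2 was at 540, 463 and 240 CPM on day 5 and at 183, 329 and 161 CPM on day 7 (log2 fold change -0.88 ± 0.37). Gbp5, an inflammasome-promoting member, was at 176, 134 and 52.3 CPM and then at 40.3, 91.6 and 38.9 CPM (log2 fold change -1.09 ± 0.45). Members of this family are close paralogs, so their single values are not independent. The count of 14 became 16 when day 7 replicate 2 or day 5 replicate 3 was left out, 1 for day 5 replicate 2, and 0 for day 5 replicate 1 and for day 7 replicates 1 and 3, while the median stayed between -1.26 and -0.69.

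**Figure D2:**
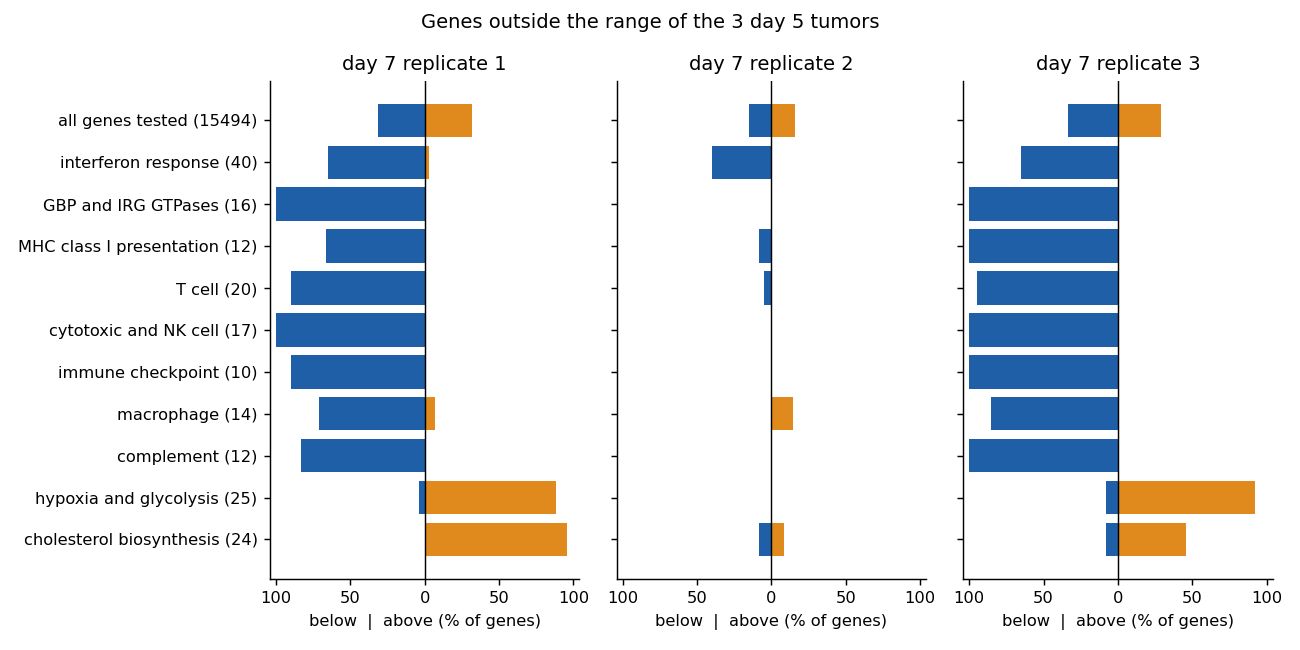
Percent of genes of each list in which a day 7 tumor lay below (blue, to the left) or above (orange, to the right) the range of the 3 day 5 tumors, for each day 7 tumor. Replicates 1 and 3 lay below the range in all 16 GBP and IRG genes and replicate 2 in none, whereas replicate 2 lay below it in 16 of 40 interferon response genes.

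By level, the lists of CXCR3 with its ligands and MHC class I presentation had the tumor order of the GBP and IRG list. Single genes did not all follow it. Of the CXCR3 list only Cxcl9 did, and H2-K1, B2m, Psmb8, Psmb9 and Nlrc5 of the MHC class I list did not. Cxcl9, a T cell attractant, was at 676, 392 and 188 CPM on day 5 and at 140, 280 and 105 CPM on day 7, with a log2 fold change of -1.26 ± 0.50 (unadjusted p = 0.0251 by edgeR). Cxcl10, which type I interferon also induces, was at 282, 264 and 113 CPM and then at 90.3, 171 and 114 CPM (log2 fold change -0.81 ± 0.46). All 12 MHC class I presentation genes were lower, with a median of -0.40. Tap1, a subunit of the peptide transporter, was at 480, 425 and 254 CPM and then at 237, 334 and 197 CPM. The class I heavy chain gene H2-K1 had a log2 fold change of -0.36 ± 0.21 and B2m, its light chain, -0.24 ± 0.18. All 9 MHC class II genes were lower with a larger median of -1.32, and 0 of them were at an unadjusted p under 0.05. Leaving out day 5 replicate 1 gave a median of -0.53, leaving out day 7 replicate 2 gave -2.02, and in this list day 7 replicate 1 stood above day 5 replicate 3. H2-Ab1 was at 909, 330 and 157 CPM on day 5 and at 159, 265 and 51.3 CPM on day 7, so that day 5 replicate 1 alone held much of the difference.

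T cell, regulatory T cell and cytotoxic genes had the medians farthest below 0 of the 33 lists. In bulk tumors, fewer cells of a type and less RNA per cell cannot be told apart. All 20 T cell genes were lower on day 7, their median log2 fold change was -1.70, and 12 (60.0%, against 1.94% of all genes lower) were at an unadjusted p under 0.05. None was free of overlap. Cd3e, a chain of the T cell receptor complex, was at 15.9, 8.25 and 2.12 CPM on day 5 and at 1.38, 4.30 and 0.710 CPM on day 7 (log2 fold change -2.03 ± 0.85). Cd8a, of cytotoxic T cells, was at 30.2, 25.4 and 6.10 CPM and then at 3.78, 12.7 and 2.88 CPM (log2 fold change -1.67 ± 0.74). Cd4 was at 29.6, 7.68 and 3.34 CPM and then at 1.83, 9.09 and 1.17 CPM (log2 fold change -1.74 ± 0.97). In each of these genes day 7 replicate 2 lay inside the day 5 range and the other day 7 tumors lay below it. Tcf7, which is also expressed outside mature T cells, was at 72.6 CPM or more in all 6 tumors, with a log2 fold change of -0.16 ± 0.19, the nearest to 0 in the list.

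Genes of cell killing were lower in the same tumors as the T cell genes. All 17 tested of 18 cytotoxic and NK cell genes were lower, with a median of -1.55, and 5 (29.4%, against 1.94% of all genes lower) were at an unadjusted p under 0.05, namely Gzmb, Gzmc, Gzmk, Ifng and Prf1. Gzmb, which encodes granzyme B, was at 81.8, 72.5 and 22.0 CPM on day 5 and at 9.64, 39.5 and 9.19 CPM on day 7 (log2 fold change -1.59 ± 0.65). Prf1, the pore-forming perforin, was at 78.3, 42.2 and 9.55 CPM and then at 6.14, 23.6 and 6.23 CPM (log2 fold change -1.85 ± 0.73). Ifng itself was at 6.44, 6.19 and 1.36 CPM and then at 0.691, 3.16 and 0.710 CPM (log2 fold change -1.61 ± 0.72). Day 7 replicates 1 and 3 were both below the day 5 range in 17 of 17 genes, against 3025 of all 15494 genes. They were below the lowest day 0 tumor as well for Gzmb, Prf1 and Ifng, whose day 0 minima were 28.8, 17.6 and 1.65 CPM.

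Regulatory T cell and checkpoint genes were also lower, and a single tumor carried much of both lists. All 9 regulatory T cell genes were lower with a median of -1.68, and 6 (66.7%, against 1.94% of all genes lower) were at an unadjusted p under 0.05. Foxp3, the factor that defines these cells, was at 15.3, 2.95 and 2.15 CPM on day 5 and at 2.48, 2.47 and 1.42 CPM on day 7. Its log2 fold change was -1.67 ± 0.65 with all tumors and -0.26 without day 5 replicate 1, and the list median became -0.42 with 0 genes at an unadjusted p under 0.05. Ctla4 was at 21.0, 4.45 and 2.55 CPM and then at 1.75, 4.71 and 0.919 CPM, with the same tumor apart. Of 10 checkpoint genes 10 were lower, with a median of -1.21, and 7 (70.0%, against the same 1.94%) were at an unadjusted p under 0.05. Without day 5 replicate 1 the checkpoint median was -0.51 and the count 0, and the count was also 0 without day 7 replicate 1 or 3. Ctla4 is a member of both lists. Pdcd1, encoding PD-1, was at 11.5, 8.53 and 2.37 CPM and then at 1.06, 3.38 and 0.543 CPM (log2 fold change -2.16 ± 0.78). Cd274, encoding its ligand PD-L1, was at 198, 162 and 63.3 CPM and then at 38.4, 106 and 43.2 CPM (log2 fold change -1.17 ± 0.53). For both, the step was shared by day 5 replicates 1 and 2, and without any single tumor the log2 fold change of Cd274 stayed between -1.79 and -0.85.

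**Figure D3:**
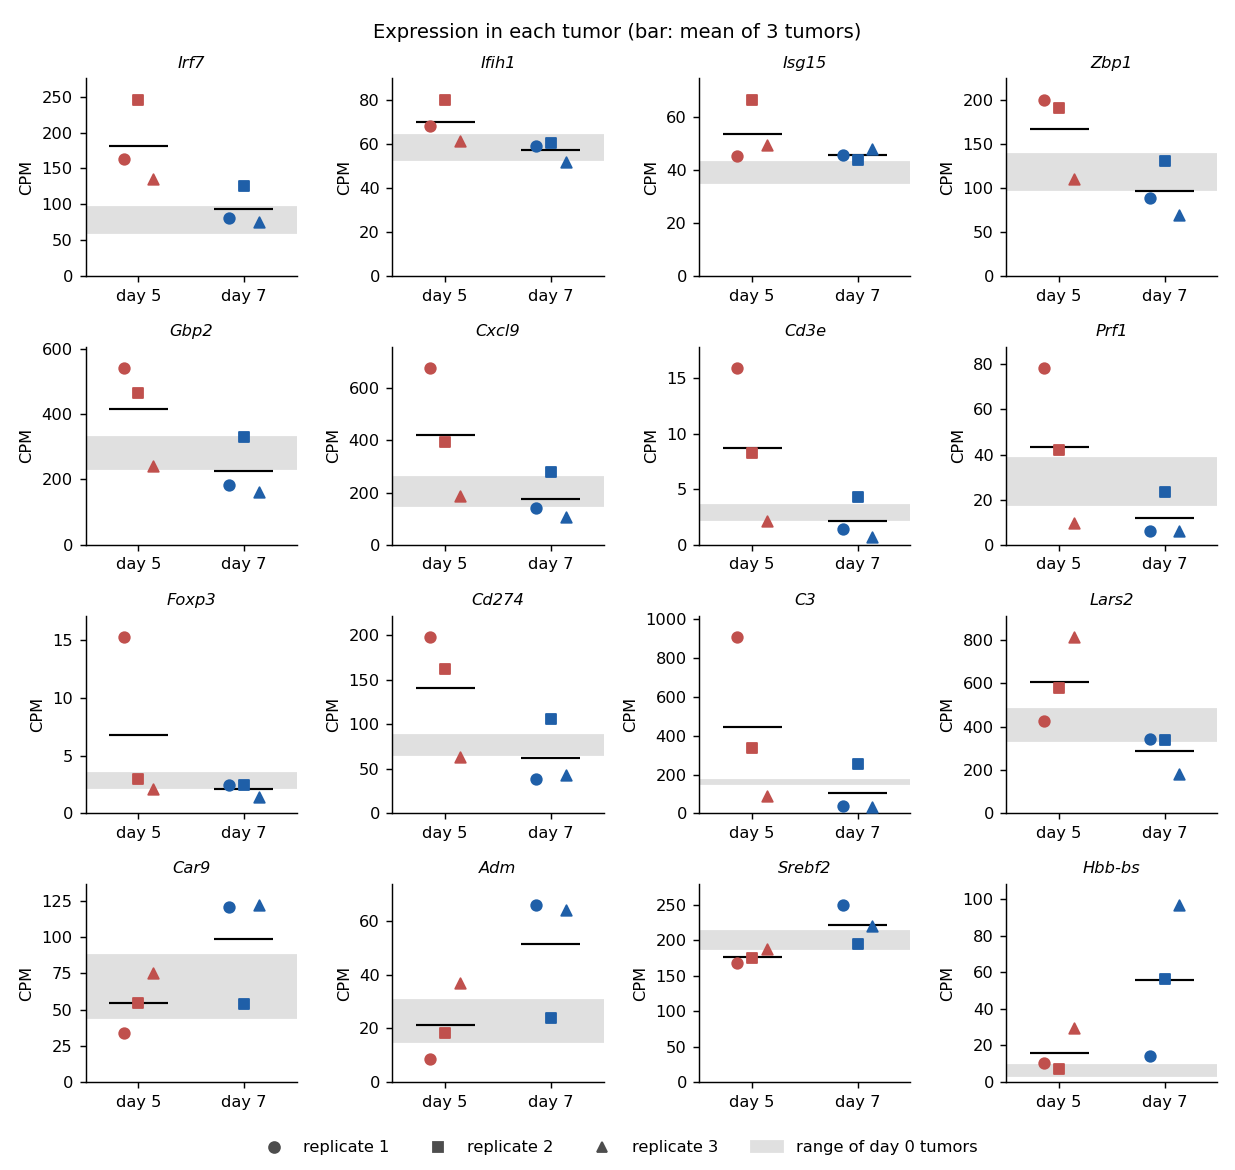
CPM of 16 genes in the 3 day 5 and 3 day 7 tumors (symbols mark the replicate, bars the mean of 3 tumors, grey bands the range of the day 0 tumors). Irf7 and Ifih1 do not overlap between the days, whereas for Gbp2, Cd3e, Prf1 and Cd274 day 7 replicate 2 lies among the day 5 tumors.

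Macrophage and monocyte genes had medians nearer to 0 than T cell, cytotoxic and regulatory T cell genes. Of 14 macrophage genes 12 were lower, with a median of -0.51 and 0 at an unadjusted p under 0.05. Adgre1, which encodes F4/80, was at 160, 229 and 128 CPM on day 5 and at 105, 160 and 55.8 CPM on day 7 (log2 fold change -0.69 ± 0.44). C1qa, a complement component made by macrophages, had a log2 fold change of -0.48 ± 0.39. Mrc1, a mannose receptor of macrophages, lay the other way at 0.14 ± 0.34. For monocyte genes the median was -0.50, and 8 of 12 were lower. Ccr2, the receptor that brings monocytes into tissue, was at 186, 116 and 120 CPM and then at 102, 110 and 42.3 CPM, and its groups did not overlap. Ly6c2, a surface marker of inflammatory monocytes, had a log2 fold change of -1.11 ± 0.61. Vcan and Fn1, which tumor fibroblasts also make, were the members farthest above 0, at 0.48 ± 0.22 and 0.35 ± 0.24.

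Monocyte-attracting chemokines differed among themselves. Their 8 genes had a median of -0.81 with 7 lower. Ccl5, a chemokine of T cells and interferon-exposed cells, was at 72.1, 55.4 and 31.5 CPM on day 5 and at 6.91, 34.6 and 9.36 CPM on day 7 (log2 fold change -1.64 ± 0.67). Ccl2, the main CCR2 ligand, was at 227, 259 and 197 CPM and then at 177, 236 and 207 CPM (log2 fold change -0.14 ± 0.39). Ccl12, another CCR2 ligand, had a log2 fold change of 0.30 ± 0.29. Ccl5 was the only gene of the list at an unadjusted p under 0.05 (12.5%, against 1.94% of all genes lower), and it overlapped between the days, as did Ccl2 and Ccl12.

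Dendritic cell, B cell and complement genes depended on day 5 replicate 1. All 12 dendritic cell genes were lower with a median of -1.09, and 3 (25.0%, against 1.94% of all genes lower), Ccr7, Irf8 and Itgax, were at an unadjusted p under 0.05. Without day 5 replicate 1 the median was -0.34, and 10 of 12 were lower. Ccr7, the receptor of migrating dendritic cells, was at 15.6, 2.20 and 1.94 CPM on day 5 and at 1.67, 2.24 and 1.00 CPM on day 7, with a log2 fold change of -2.0 ± 0.76 that became -0.34 without day 5 replicate 1. The B and plasma cell list had a median of -1.08 that became 0.16 without the same tumor, and Ms4a1, which encodes CD20, was at 1.02 CPM or less throughout. C3, the central complement component, was at 910, 339 and 91.1 CPM and then at 35.4, 254 and 31.5 CPM (log2 fold change -2.06 ± 0.96). It had the lowest log2 fold change of 12 complement genes, whose median was -0.86 and became -0.36 without day 5 replicate 1.

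The order of the tumors was shared by many lists. In 11 of 33 lists the level ran from day 5 replicate 1 through day 5 replicate 2, day 7 replicate 2, day 5 replicate 3 and day 7 replicate 1 down to day 7 replicate 3. These were the GBP and IRG, MHC class I, CXCR3, T cell, cytotoxic, regulatory T cell, checkpoint, macrophage, mast cell and eosinophil, complement and adipocyte lists, so that a list of the surrounding tissue shared the order of the immune lists. Day 5 replicate 1 was the highest of the 6 tumors in 22 lists and day 7 replicate 3 the lowest in 23. Day 7 replicates 1 and 3 were both below the day 5 range in 18 lists, and day 7 replicate 2 was inside that range in 28. Over all genes, day 7 replicate 2 was below the day 5 range in 14.8% and above it in 15.7%. For day 7 replicates 1 and 3 the shares below were 31.5% and 33.4%, and the shares above were 31.6% and 29.3%.

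**Figure D4:**
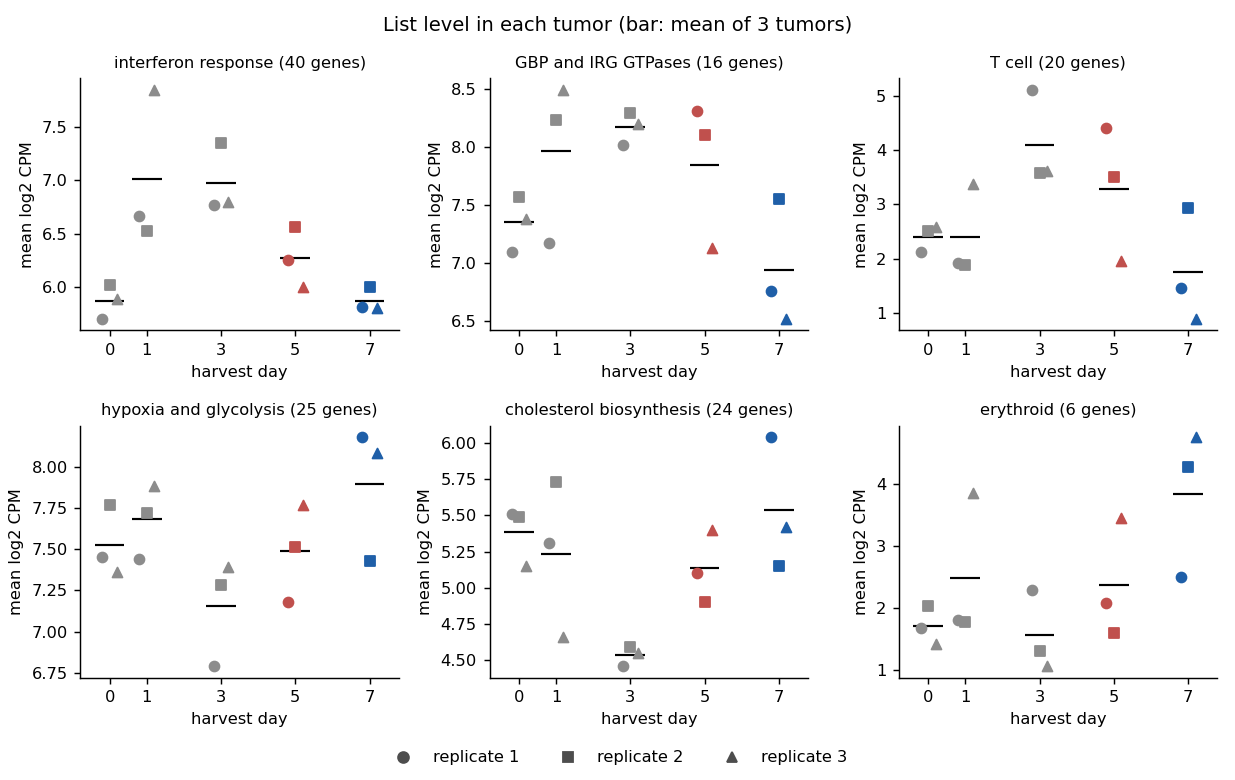
Mean log2 CPM of 6 lists in each of the 15 tumors by harvest day, with bars at the mean of 3 tumors. The interferon response list stands at 5.87 on day 0 and on day 7, and the 2 day 7 tumors with the lowest T cell level (replicates 1 and 3) have the highest hypoxia level.

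Hypoxia and glycolysis genes were higher in the same 2 day 7 tumors. Of 25 genes 23 were higher on day 7, with a median of 0.40, and 3 of them (against 1.08% of all genes), Adm, Ankrd37 and Ddit4, were at an unadjusted p under 0.05. Day 7 replicates 1 and 3 both lay above the day 5 range in 22 genes, against 2449 of all 15494 genes, and day 7 replicate 2 in none. Car9, a carbonic anhydrase used as a hypoxia marker, was at 34.1, 54.4 and 75.2 CPM on day 5 and at 121, 53.7 and 122 CPM on day 7 (log2 fold change 0.86 ± 0.44). Adm, encoding adrenomedullin, was at 8.64, 18.3 and 37.0 CPM and then at 65.9, 24.0 and 64.2 CPM (log2 fold change 1.27 ± 0.54). Vegfa had a smaller value of 0.38 ± 0.30. Pfkfb3 and Pfkfb4, regulators of glycolysis, lay the other way at -0.66 ± 0.33 and -0.53 ± 0.31. With each tumor left out in turn the list median stayed above 0, between 0.28 and 0.59.

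Cholesterol synthesis genes were higher on day 7, mostly through replicate 1. Of 24 genes 22 were higher, with a median of 0.50 and 0 at an unadjusted p under 0.05. Srebf2, the master regulator of the pathway, was at 168, 175 and 187 CPM on day 5 and at 249, 195 and 220 CPM on day 7. Its log2 fold change was 0.32 ± 0.20, and it was among the 2 genes of the list whose days did not overlap (8.33%, against 4.08% of all genes). Hmgcs1, an early enzyme of the pathway, was at 77.4, 61.6 and 100.0 CPM and then at 185, 72.7 and 98.4 CPM, so that day 7 replicate 1 stood apart. Without that tumor the list median was 0.15 and 18 of 24 genes were higher. The list's level on day 7, 5.54 ± 0.46, was close to the 5.38 ± 0.20 of day 0 and above the 4.53 ± 0.07 of day 3 (SD, n = 3).

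Hemoglobin genes were higher in a different pair of day 7 tumors. Hbb-bs, an adult beta globin, was at 10.6, 6.97 and 29.8 CPM on day 5 and at 14.1, 56.3 and 96.6 CPM on day 7 (log2 fold change 1.81 ± 0.91). Hba-a1 had a log2 fold change of 1.95 ± 0.98, and the globin paralogs share sequence, so their values are not independent. Alas2, the heme synthesis enzyme of red cell precursors, was at 0.329, 0.142 and 1.22 CPM and then at 0.691, 1.86 and 3.26 CPM (log2 fold change 1.77 ± 0.66). The high tumors here were replicates 2 and 3, not the replicates 1 and 3 of the hypoxia list. Of 10 erythroid genes 6 were tested, and 4 markers of the lineage, among them Slc4a1 and Ahsp, were too low.

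Proliferation and stress genes had medians near 0. Proliferation genes had a median of 0.05 and Mki67 a log2 fold change of 0.43 ± 0.27, the highest of its 24 genes. Stress genes had a median of 0.07, with Ddit3 at 0.36 ± 0.32, and immediate early genes one of -0.11. Vim was at -0.09 ± 0.19. Collagen and matrix genes had a median of -0.42 that became 0.04 without day 5 replicate 1. Col1a1, a fibrillar collagen, was at 2194, 773 and 561 CPM on day 5 and at 664, 865 and 487 CPM on day 7, with that tumor apart. Pecam1, an endothelial adhesion gene, had a log2 fold change of -0.76 ± 0.45 in a list with a median of -0.55, and that median was -0.07, with 11 of 14 genes lower, without day 5 replicate 1.

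The study removed the tissue around the tumors, and skeletal muscle genes varied most between tumors of the 33 lists. Skeletal muscle list levels were -1.64, 3.20 and 2.71 on day 5 and -0.97, 3.40 and -1.90 on day 7, a wider range than that of any other list. Acta1, skeletal muscle actin, was at 0.0732, 37.2 and 26.1 CPM and then at 1.30, 37.5 and 0.167 CPM. Day 5 replicate 1 and day 7 replicates 1 and 3 were the low tumors in muscle genes. Adipocyte list levels were 2.40, 2.28 and 1.28 on day 5 and 0.27, 1.77 and -0.04 on day 7, in the order of tumors of the GBP and IRG and T cell lists. The median of 11 adipocyte genes was -1.19, with 9 lower, and stayed between -1.83 and -0.97 with each tumor left out. The part of muscle or of adipose tissue in the immune values was not tested.

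Outside the lists, the 12 genes higher and the 12 lower on day 7 with the smallest unadjusted p among those without overlap were mostly of small size. Lars2, the mitochondrial leucyl-tRNA synthetase, was at 426, 577 and 813 CPM on day 5 and at 342, 337 and 182 CPM on day 7, with a log2 fold change of -1.08 ± 0.30 (unadjusted p = 0.0032 by edgeR). In this gene day 5 replicate 3 was the highest tumor and day 7 replicate 3 the lowest. Col22a1, a collagen of tissue junctions, was at 3.48, 3.13 and 2.59 CPM and then at 1.83, 1.90 and 1.55 CPM (log2 fold change -0.80 ± 0.22). Ubash3a, a suppressor of T cell receptor signalling, was the lymphocyte gene of this set at -1.48 ± 0.51. H2-K2, a relative of H2-K1 whose reads may be shared with it, was at -0.39 ± 0.15. The other lower genes were Sord, Slc4a11, Ggct, Rap1gap, Gpr141, Tex2, Meis3 and Sdhaf2, with log2 fold changes between -1.15 and -0.20. Among the higher genes, Dync2h1, a motor of cilia, was at 9.29, 7.57 and 9.84 CPM and then at 16.9, 11.7 and 13.2 CPM (log2 fold change 0.65 ± 0.22). Taf9, a subunit of TFIID, was at 9.48, 12.4 and 19.3 CPM and then at 22.0, 20.8 and 21.0 CPM, which is the range of the day 0 tumors (20.3 to 24.5 CPM). The others higher were Lage3, Cuedc1, Lysmd1, Ndufs5, Garnl3, Adamts6, Ankrd50, Asxl2, Vps13b and Fgfr1op, with log2 fold changes between 0.24 and 0.63.

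The 2 genes that DESeq2 called were both listed at 0 CPM in every day 5 tumor. The predicted gene Gm43064 was at 0.651, 0.608 and 4.47 CPM on day 7 and at 0.707 to 1.62 CPM on day 0 (DESeq2 adjusted p = 0.0333). Rps16-ps2, a ribosomal protein pseudogene whose reads could belong to its parent gene, was at 7.23 CPM in day 7 replicate 3 and at 0 in the other day 7 tumors (DESeq2 adjusted p = 0.0265). Both had an edgeR adjusted p of 0.848.

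**Figure D5:**
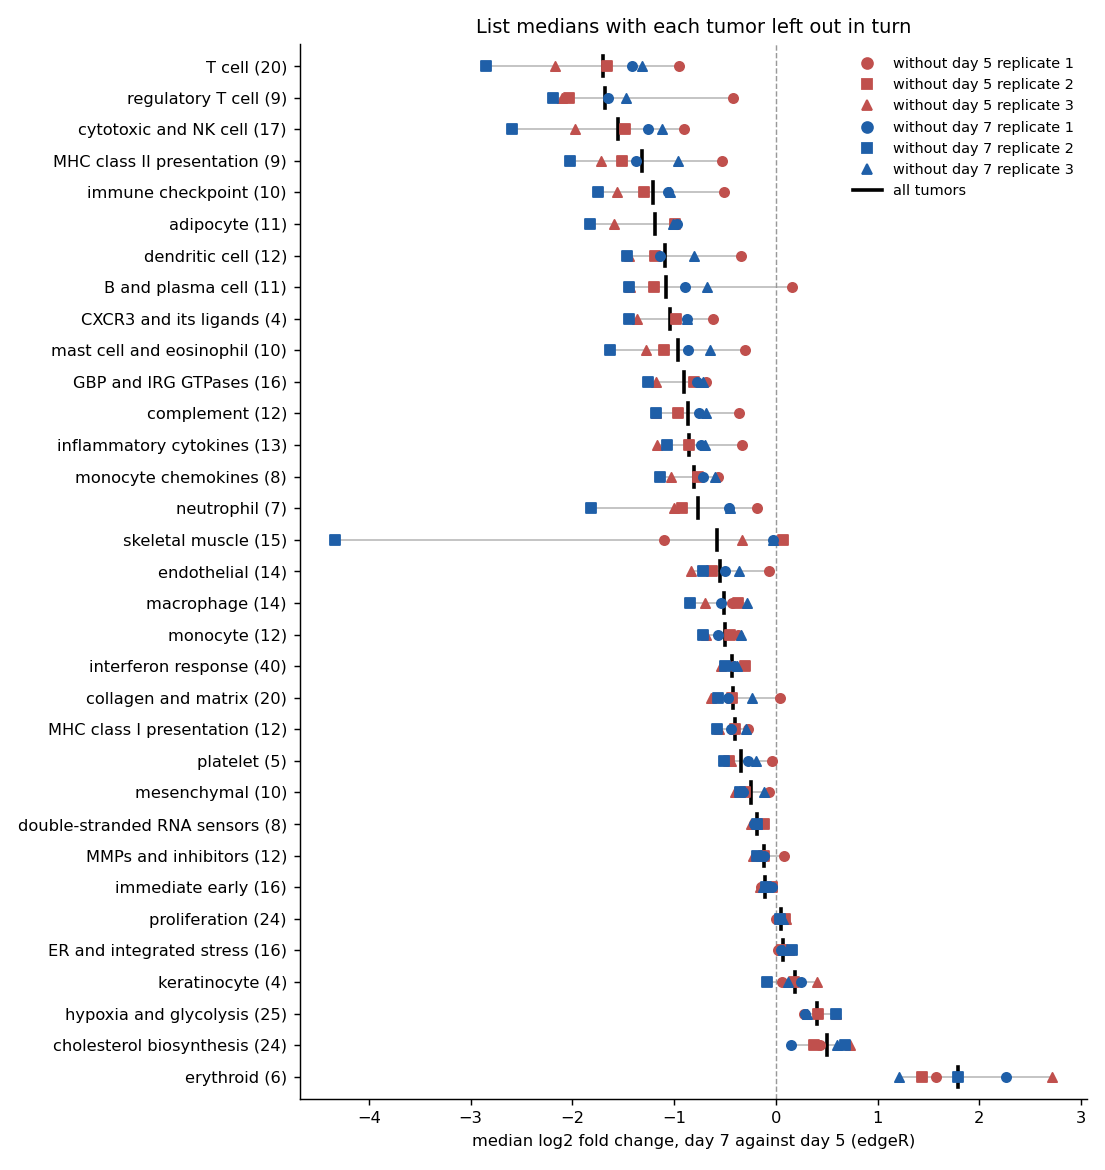
Median log2 fold change of 33 lists with all tumors (bar) and with each day 5 or day 7 tumor left out in turn (symbols). The interferon response median stays between -0.54 and -0.30, and that of regulatory T cell genes moves from -1.68 to -0.42 without day 5 replicate 1.

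The weight of single tumors differed by list. The median of the interferon response list ranged from -0.54 to -0.30 with each tumor left out, that of T cell genes from -2.85 to -0.95, and that of cytotoxic genes from -2.59 to -0.90. The 12 T cell genes at an unadjusted p under 0.05 became 18 when day 7 replicate 2 was left out, and 0 when day 5 replicate 1 or day 7 replicate 1 or 3 was. They became 13 without day 3 replicate 1, a tumor outside this step that stood apart in the whole course and enters the shared estimate of the spread. With only the 6 tumors in the fit they became 2, and the GBP and IRG count of 14 became 10, while that of the interferon response list went from 5 to 18.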

How the data were processed

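RNA of 15 tumors was sequenced, and this report uses the 6 of day 5 and day 7. Groups and replicate numbers were taken from the labels. The authors made 100 base single-end poly(A) libraries, ran kallisto and tximport on mm10 (GRCm38 in the submitters' processing notes) and deposited estimated counts, summed to genes and whole, with 1 column for each tumor. The transcript set and the strand setting are not given in the sources used here. Kallisto divides shared reads, so paralogs are uncertain. Of 32544 entries, 9156 held no count and 1 had a date for a name (up to 0.0268% of a library) and was left out. Names of 31401 entries matched mouse symbols.

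Genes above 0.366 CPM in at least 3 tumors (15494) were fitted with edgeR 4.0.16 (R 4.3.3), with TMM factors and a term for the harvest day over all 15 tumors. Day 7 was set against day 5 by a two-sided quasi-likelihood test, adjusted by the Benjamini-Hochberg method and called at an adjusted p under 0.05. DESeq2 1.42.0, limma 3.58.1, other scalings, other filters and left-out tumors were alternatives, and the scripts were tested on simulated data. List levels average log2 CPM (prior count 2). Genes in text were a fixed panel, the 12 higher and 12 lower genes without overlap that had the smallest p (mean CPM of at least 2, no predicted genes or pseudogenes), and the extremes of each list. The other named genes, such as Ifih1, Mx1, Oas1a, Bst2, Gbp5, Tap1, Ccr2, Ctla4, Srebf2 and Alas2, were chosen after their values were seen. Members and lists were chosen with earlier results of these data known. With 3 tumors against 3, an exact two-sided permutation p cannot go below 0.1, so none is given. Some genes of the lists are not reported here.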

Additional observations from a re-analysis of the deposited data

How the results depend on the processing

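EdgeR and limma called 0 genes at an adjusted p under 0.05 under every alternative run, and DESeq2 called 2. The count at an unadjusted p under 0.05, 468 in the report, was 723 with DESeq2 and 4440 with limma voom and sample weights. These weights were 0.0719 for day 3 replicate 1, the tumor that stood apart in the course. They were 0.674, 4.21 and 0.494 for day 5 replicates 1, 2 and 3, so that day 5 replicate 2 counted most on its day. The count ranged from 87 to 1754 with single tumors left out: 87, 248 and 1754 without day 5 replicates 1, 2 and 3, 167, 1684 and 112 without day 7 replicates 1, 2 and 3, and 1141 without day 3 replicate 1. The cause was not tested. Replicate numbers were not used to pair the tumors in the main fit. Correlations of same-numbered deviations were -0.1, 0.18 and 0.48, the last being the highest of any pairing across the days. With 3 tumors for each day these values cannot decide whether the numbers mark pairs. A fit with a replicate block gave 326 genes. In that fit the 12 T cell genes at an unadjusted p under 0.05 became 1. The 7 checkpoint genes became 2 and the 6 regulatory T cell genes 3, while the GBP and IRG count stayed at 14. Other scalings and filters kept the count over all genes between 460 and 694. Genes without overlap, 1180 in the report, numbered between 1666 and 6620 with single day 5 or day 7 tumors left out. Fewer tumors overlap less often, but the number also differed by the tumor left out, and the cause was not tested.

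List medians moved by less than the spread between tumors in 519 of 528 cases. With sample weights the interferon response median was -0.66, the skeletal muscle median -3.48 and the adipocyte median -2.01. In that fit day 5 replicate 2 counted most among the day 5 tumors. With single tumors left out, the medians ranged from -1.17 to -0.33 for inflammatory cytokines, -2.19 to -0.42 for regulatory T cell genes, -1.44 to 0.16 for B and plasma cell genes, -1.82 to -0.19 for neutrophil genes, -0.51 to -0.04 for platelet genes and -4.33 to 0.07 for skeletal muscle genes. The collagen and metalloproteinase medians became 0.04 and 0.08 without day 5 replicate 1, and the keratinocyte median -0.12 with sample weights. Single genes that changed sign were Ms4a1 (0.06 with sample weights, -0.39 to 0.25 with tumors left out), Ifit1 (-0.32 to 0.16), Rsad2 (-0.55 to 0.18), Col1a1 (-1.14 to 0.01) and Isg20 (-0.06 to 0.21).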

Other observations

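Of 13 tested inflammatory cytokine genes 12 were lower on day 7, and their median log2 fold change was -0.85. Il12b, a subunit of IL-12 and IL-23, was at 4.98, 0.462 and 0.934 CPM on day 5 and at 0.651, 1.06 and 0.251 CPM on day 7, so that day 5 replicate 1 alone stood apart. Ptgs2, the inducible cyclooxygenase, was at 92.4, 181 and 198 CPM and then at 190, 149 and 263 CPM, and was the exception of the list at 0.35 ± 0.41 (SE). Immediate early genes differed among themselves in the same way. Ier3 was at 34.7, 42.8 and 62.3 CPM and then at 94.1, 57.4 and 88.0 CPM (0.78 ± 0.31), and Fosb was at 13.9, 23.4 and 9.16 CPM and then at 5.61, 11.4 and 8.19 CPM (-0.88 ± 0.46).

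Several neutrophil genes were sparse. All 7 tested of 12 neutrophil genes were lower, with a median of -0.77, and 5 of the 12 (Ly6g, Camp, Ngp, Ltf and Elane) were too low to be tested. S100a8 was at 4.28, 2.17 and 1.80 CPM on day 5 and at 0.813, 3.19 and 0.794 CPM on day 7. Cma1, a mast cell chymase, was at 78.9, 46.7 and 27.9 CPM and then at 20.5, 52.1 and 10.8 CPM, in a list of 10 genes that were all lower (median -0.96).

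Trp63, a factor of basal epithelium, was at 1.46, 9.81 and 2.33 CPM on day 5 and at 2.97, 24.1 and 3.43 CPM on day 7. Its highest tumor of each day was replicate 2, which also held more skeletal muscle RNA than the other tumors of its day.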
